A study of Mus musculus with 5 samples.

Results

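DNA replication and nucleotide synthesis genes were examined in mouse hematopoietic stem cells (HSCs) split by the surface integrin CD11A. The gene set was a list of 46 genes drawn from general knowledge of replication, with earlier results of these data known. Each gene was read from the brightest of its probesets over the arrays. Of the 46 genes, 45 were measured among 18193 genes in all, and Chaf1a had no probeset of its own in the annotation used. HSCs of the bone marrow of male C57/Bl6 mice were enriched for KIT and sorted as lineage-negative, KIT+ and SCA-1+ cells that carried CD150, CD27 and EPCR and lacked CD34 and FLK2. CD11A+ HSCs gave 2 Affymetrix mouse arrays and CD11A- HSCs gave 3, and the comparison addresses whether the subfractions differ in the genes of the cell cycle. Between 1011 and 2293 cells were sorted for an array, with 1 to 2 mice used per sort, and their RNA was amplified in 2 cycles.

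The labels place the arrays on 3 sort days. CD11A+ replicate 1 and CD11A- replicate 2 came from mice of 8 to 12 weeks (day A), CD11A+ replicate 2 and CD11A- replicate 3 from mice of 10 weeks (day B), and CD11A- replicate 1 from mice of 6 weeks on a day of its own (day C). Nothing in the labels says whether arrays share mice, so p-values measure only the spread between these arrays. Precision is limited by how few arrays there are, and the exact permutation test over them cannot go below p = 0.1. Values are log2 intensities made by RMA (robust multi-array average), differences are the mean of CD11A+ minus the mean of CD11A- arrays on that log2 scale, and SE is the standard error of limma, a linear model with a spread shared across probesets.

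One array stood apart before any comparison of replication genes. CD11A+ replicate 1 had a log2 value of 8.72 for Mpo, the myeloperoxidase of granulocyte precursors, against 4.59 on CD11A+ replicate 2 and 4.45 to 4.58 on the CD11A- arrays. The other granulocyte progenitor markers did not all follow. Ms4a3 had 6.6 on that array and 4.71 on CD11A+ replicate 2, against 4.83 to 5.26 on the CD11A- arrays. Ctsg had 5.34 and 4.83, against 4.59 to 4.97, so both of these genes were also highest on CD11A+ replicate 1. Elane had 4.89 on that array and 4.65 on CD11A+ replicate 2, against 4.90 to 5.37 on the CD11A- arrays. Prtn3 had 11.89 and 10.54, against 11.31 to 12.43. The value of CD11A+ replicate 1 for Procr, which encodes the sorted EPCR, was 10.33, against 12.86 on CD11A+ replicate 2 and 11.64 to 12.84 on the CD11A- arrays. Itgal, which encodes CD11A, had 8.49 and 5.67 on the CD11A+ arrays, against 5.15, 5.43 and 5.27 on the CD11A- arrays, and the second CD11A+ value was close to the CD11A- values. Kit was at 10.95 or more on every array, while Cd34 and Flt3, whose products were gated out, were at 11.07 and 9.87 and at 9.38 and 8.79 in CD11A+ HSCs, against 9.28 to 9.76 and 7.68 to 8.83 in CD11A- HSCs. The differences of the members below are therefore also given without CD11A+ replicate 1. This omission sets the day B array of the CD11A+ HSCs against CD11A- arrays of days A, B and C. Sort day and subfraction are therefore mixed in the values it gives. Their sign can differ from that on the matched arrays of day B.

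Replication is prepared in G1, when the origin recognition complex, Cdc6 and Cdt1 load the Mcm helicase onto origins in an inactive form. This step is called licensing, and geminin blocks it once S phase has started. The Cdc7 kinase with Dbf4 then fires the origins by recruiting Cdc45 and the GINS complex to the helicase, polymerase alpha with primase starts each strand, and polymerases delta and epsilon extend it on the Pcna clamp. Ribonucleotide reductase, thymidylate synthase and thymidine kinase supply the deoxynucleotides. Most of these genes are transcribed at the G1/S boundary under E2F factors, and most HSCs of an adult mouse are out of cycle.

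E2F-type letters stood before the start sites of part of the members. RefSeq promoters (GRCm38.p6) were found for 36 of the 46 listed genes, in 41 promoters, and the 250 bases before each start site were searched on both strands for TTTCCCGC, TTTCGCGC, TTTGCCGC and TTTGGCGC. At least 1 of these was present for 9 of the 36 genes (25%), against 2.2% of the 27025 genes with a promoter: Cdc6, Gins3, Hells, Mcm5, Mcm6, Mcm7, Orc1, Pola1 and Rfc3. CCAAT was present for 19 of the 36 genes (52.8%), against 37.5% of all genes. The cell-cycle homology letters TTTGAA or TTTAAA were present for 7 (19.4%), against 28.1% of all genes. Words can overlap on opposite strands, as the first pair does in Mcm6, and a match describes letters only and names no bound factor. The last 140 bases before the start site are shown for 5 of these genes, with the E2F letters in capitals. Orc1, Pola1 and Hells are those whose values did not overlap between CD11A+ and CD11A- arrays, Cdc6 had the largest mean difference of the licensing genes, and Mcm6 had the smallest of them although its window holds 3 such words.
Orc1 (chr4:108579314-108579453, + strand): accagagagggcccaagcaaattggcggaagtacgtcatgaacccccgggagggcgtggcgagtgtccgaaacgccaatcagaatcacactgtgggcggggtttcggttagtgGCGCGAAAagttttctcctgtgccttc
Pola1 (chrX:93632156-93632295, - strand): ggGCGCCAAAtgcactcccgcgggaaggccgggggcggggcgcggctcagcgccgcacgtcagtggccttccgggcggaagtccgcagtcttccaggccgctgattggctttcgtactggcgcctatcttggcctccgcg
Hells (chr19:38930850-38930989, + strand): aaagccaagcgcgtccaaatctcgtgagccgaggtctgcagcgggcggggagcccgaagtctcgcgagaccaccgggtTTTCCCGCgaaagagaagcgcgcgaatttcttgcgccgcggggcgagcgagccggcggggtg
Cdc6 (chr11:98908011-98908150, + strand): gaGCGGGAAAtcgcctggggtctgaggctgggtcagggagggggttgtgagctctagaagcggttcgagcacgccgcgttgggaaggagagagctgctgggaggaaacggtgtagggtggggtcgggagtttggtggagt
Mcm6 (chr1:128359706-128359845, - strand): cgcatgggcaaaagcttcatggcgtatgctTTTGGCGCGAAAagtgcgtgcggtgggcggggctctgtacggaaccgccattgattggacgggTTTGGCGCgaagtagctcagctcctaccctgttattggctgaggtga

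Mean values of nearly all members were higher in CD11A+ HSCs, by amounts that did not pass the test. The mean was higher in CD11A+ HSCs for 44 of the 45 measured members, against 48.5% of all genes, and Pole was the exception. The members were listed with earlier results of these data known, so such shares only describe them. The median difference over the members was 0.82 and their range -0.10 to 1.80, beside a median of -0.01 over all genes. No member passed an adjusted p of 0.05 from limma (0 of 45, against 0% of all 45037 probesets), and the adjusted p was 1.00 for each of them. At an unadjusted limma p under 0.05, 7 members were higher (Orc1, Cdc7, Pola1, Pcna, Lig1, Ung and Hells), against 1.48% of all genes, and 0 were lower, against 3.58% of all genes. Both CD11A+ arrays lay above all 3 CD11A- arrays for these 7 genes and Rfc5, 8 of 45, against 8.56% of all genes, and for 0 members did both lie below, against 10.4% of all genes. RNA was pooled from sorted cells, so more cells of a type and more RNA per cell cannot be told apart in any of these values.

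**Figure D1:**
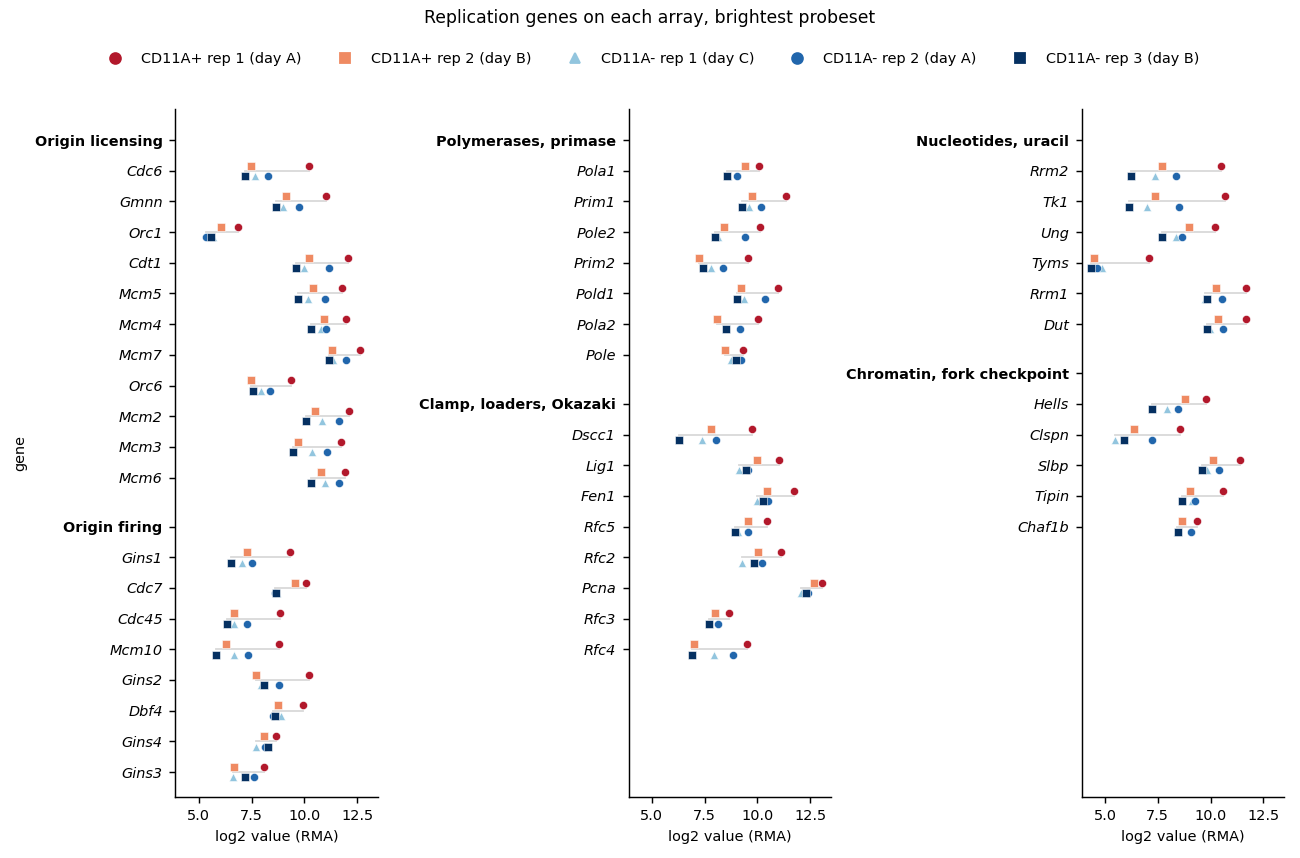
Log2 value (x axis) of each measured member on each of the 5 arrays, by role and in order of the mean difference, with CD11A+ arrays in red and orange on the upper line of a gene, CD11A- arrays in blue on the lower, and circles, squares and triangles for days A, B and C. CD11A+ replicate 1 is the rightmost point for all 45 members, and CD11A+ replicate 2 often lies among the CD11A- arrays.

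All 11 licensing genes had a higher mean in CD11A+ HSCs, with a median difference of 0.72 and a range of 0.38 to 1.14, and the groups overlapped for 10 of them. Orc1, the subunit of the origin recognition complex whose level follows the cell cycle, had log2 values of 6.86 and 6.06 on the CD11A+ arrays and 5.67, 5.33 and 5.56 on the CD11A- arrays. These values did not overlap, and the difference was 0.94 (SE 0.28, exact permutation test, two-sided, p = 0.1). Without CD11A+ replicate 1 the Orc1 difference was 0.54. The other Orc subunits on the array were chosen for comparison after their values were seen, and their differences were smaller: 0.20 for Orc2, 0.04 for Orc3 and for Orc4, and 0.10 for Orc5 (-0.02, 0.17, -0.13 and 0.28 without CD11A+ replicate 1). The member Orc6 differed by 0.45, and by -0.50 without that array.

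Cdc6, the loader of the helicase, had log2 values of 10.23 and 7.46 in CD11A+ HSCs and 7.66, 8.29 and 7.17 in CD11A- HSCs. The second CD11A+ value lay inside the CD11A- range, the mean difference was 1.14 (SE 0.81, 2.20-fold on the linear scale), and without CD11A+ replicate 1 it was -0.25. Geminin (Gmnn), which holds Cdt1 back, had 11.05 and 9.12 in CD11A+ HSCs against 8.98, 9.75 and 8.67 in CD11A- HSCs, a difference of 0.95 (SE 0.61) that was -0.01 without CD11A+ replicate 1. Cdt1 itself differed by 0.91 (SE 0.68) and by -0.01 without that array, so the loader and its inhibitor had differences of like size. Among the 6 subunits of the Mcm helicase, the differences were 0.81 for Mcm5, 0.72 for Mcm4, 0.47 for Mcm7, 0.44 for Mcm2, 0.41 for Mcm3 and 0.38 for Mcm6. Mcm6 had 11.93 and 10.78 in CD11A+ HSCs, against 10.96, 11.66 and 10.31 in CD11A- HSCs. The day A arrays of both subfractions were its highest values, 0.27 apart. Without CD11A+ replicate 1, Mcm4 and Mcm5 had differences of 0.20 and 0.11, while the other 4 helicase subunits had differences of -0.18 to -0.62. On the matched arrays of day B all 6 were higher in CD11A+ HSCs, by 0.16 for Mcm7 to 0.70 for Mcm5.

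Of 8 origin-firing genes, all had a higher mean in CD11A+ HSCs, with a median difference of 0.80 and a range of 0.23 to 1.28. Cdc7, the kinase that triggers firing, had the smallest unadjusted p of the members (0.00172 from limma; adjusted p = 1.00). Its log2 values were 10.10 and 9.57 in CD11A+ HSCs and 8.70, 8.63 and 8.66 in CD11A- HSCs. The CD11A- arrays were within 0.07 of each other and both CD11A+ arrays were well above them, a difference of 1.17 (SE 0.22, 2.25-fold on the linear scale, exact permutation p = 0.1), and the difference was 0.91 without CD11A+ replicate 1. Dbf4, the activating subunit of the same kinase, differed by 0.67 (SE 0.37) and by 0.08 without that array.

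Gins1, a subunit of the GINS complex that travels with the helicase, had 9.32 and 7.29 in CD11A+ HSCs, against 7.03, 7.50 and 6.55 in CD11A- HSCs. The second CD11A+ value fell between the CD11A- values, and the difference was 1.28 (SE 0.62, exact permutation p = 0.2), or 0.26 without CD11A+ replicate 1. Its partner Gins3 had 8.09 and 6.65 in CD11A+ HSCs against 6.62, 7.60 and 7.19 in CD11A- HSCs, and its difference was 0.23 (SE 0.49; -0.49 without CD11A+ replicate 1). The second CD11A+ value lay next to the lowest CD11A- value, and the first was the highest of the 5. Gins2 and Gins4 differed by 0.69 and 0.33, and by -0.56 and 0.05 without CD11A+ replicate 1, and the largest and smallest differences of the firing genes were both of this complex. Cdc45, the other helicase cofactor, differed by 1.00 (SE 0.65; -0.08 without CD11A+ replicate 1) and Mcm10, which helps to activate the helicase, by 0.91 (SE 0.80; -0.34 without that array).

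The polymerase and primase genes had the smallest median difference of the 6 roles, 0.51, and 6 of 7 had a higher mean in CD11A+ HSCs. Pola1, the catalytic subunit of polymerase alpha, had 10.08 and 9.39 in CD11A+ HSCs, against 8.62, 9.05 and 8.58 in CD11A- HSCs. The groups did not overlap, and the difference was 0.99 (SE 0.28, exact permutation p = 0.1; 0.64 without CD11A+ replicate 1). Prim1, the catalytic primase subunit, had 11.36 and 9.74 in CD11A+ HSCs against 9.58, 10.19 and 9.25 in CD11A- HSCs, a difference of 0.88 (SE 0.53; 0.07 without CD11A+ replicate 1) with the second CD11A+ value below 1 of the CD11A- values. Pole, the catalytic subunit of the leading-strand polymerase epsilon, was the member with a lower mean in CD11A+ HSCs. Its values were 9.31 and 8.45 in CD11A+ HSCs and 8.74, 9.21 and 8.98 in CD11A- HSCs. The CD11A+ values were the highest and the lowest of the 5, and the difference was -0.10 (SE 0.31; -0.53 without CD11A+ replicate 1). Of the accessory subunits, Pole2 differed by 0.75, Prim2 by 0.51 and Pola2 by 0.34, and the catalytic subunit Pold1 of polymerase delta by 0.50. Without CD11A+ replicate 1 these 4 differences were -0.09, -0.65, -0.65 and -0.38.

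Of the 8 genes for the clamp, its loaders and the enzymes that finish Okazaki fragments, 3 had both CD11A+ arrays above all CD11A- arrays. The share over all genes was 8.56%, and for 1 of the 3, Rfc5, the gap was only 0.01. All 8 genes of this role had a higher mean in CD11A+ HSCs, with a median difference of 0.81. Pcna, the sliding clamp, had 13.06 and 12.66 in CD11A+ HSCs, against 12.06, 12.40 and 12.28 in CD11A- HSCs. Its difference was 0.61 (SE 0.22, 1.53-fold on the linear scale, exact permutation p = 0.1; 0.41 without CD11A+ replicate 1). Lig1, the ligase that seals Okazaki fragments, had 11.00 and 9.99 in CD11A+ HSCs against 9.11, 9.56 and 9.48 in CD11A- HSCs, which did not overlap either, and its difference was 1.11 (SE 0.34, exact permutation p = 0.1; 0.61 without CD11A+ replicate 1). Rfc5, a subunit of the clamp loader, had 10.47 and 9.56 in CD11A+ HSCs against 9.10, 9.55 and 8.94 in CD11A- HSCs, and its groups were apart by only 0.01. The difference was 0.82 (SE 0.34, 0.36 without CD11A+ replicate 1), and the exact permutation p was 0.2, since another split of these 5 values gives as large a difference.

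Dscc1, part of the alternative clamp loader that works with cohesin, had the largest difference of this role, 1.53 (SE 0.71; 0.57 without CD11A+ replicate 1). Its values were 9.72 and 7.80 in CD11A+ HSCs and 7.39, 8.02 and 6.27 in CD11A- HSCs. They overlapped across sort days, since the day A array of the CD11A- HSCs exceeded the day B array of the CD11A+ HSCs, and the CD11A- values spanned 1.75. Rfc4 had the smallest difference, 0.34 (SE 0.86; -0.93 without CD11A+ replicate 1), with 9.52 and 6.98 in CD11A+ HSCs and 7.96, 8.85 and 6.92 in CD11A- HSCs. Its second CD11A+ value was close to the lowest CD11A- value, from the same sort day. Rfc2 and Rfc3 differed by 0.80 and 0.45, the flap nuclease Fen1 by 0.84 (0.27, 0.12 and 0.22 without CD11A+ replicate 1), and Rfc1, the large subunit of the loader, which is no member and was added after its values were seen, by 0.13 (0.21 without that array).

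The nucleotide genes, with which Ung for uracil removal was counted, had the largest median difference of the 6 roles, 1.28. All 6 genes had a higher mean in CD11A+ HSCs. Rrm2, the small subunit that limits ribonucleotide reductase in S phase, had the largest difference of all members. Its values were 10.51 and 7.70 in CD11A+ HSCs, against 7.36, 8.34 and 6.22 in CD11A- HSCs. The CD11A- values alone spanned 2.12, more than the difference of 1.80 (SE 0.95, 3.48-fold on the linear scale), which was 0.39 without CD11A+ replicate 1. On the matched arrays of day B, the Rrm2 difference was 1.48. Tk1, the thymidine kinase of cycling cells, had 10.67 and 7.37 in CD11A+ HSCs and 7.01, 8.52 and 6.16 in CD11A- HSCs. The second CD11A+ value lay within the CD11A- range, and the difference of 1.79 (SE 1.09) was 0.14 without CD11A+ replicate 1. On the matched arrays of day B, the Tk1 difference was 1.21. Ung, which removes uracil from DNA, had 10.23 and 8.97 in CD11A+ HSCs against 8.36, 8.65 and 7.70 in CD11A- HSCs, without overlap, and differed by 1.36 (SE 0.45, exact permutation p = 0.1; 0.73 without CD11A+ replicate 1).

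Dut, which clears dUTP, had the smallest difference of the role, 0.88 (SE 0.45; 0.20 without CD11A+ replicate 1). Its values were 11.70 and 10.33 in CD11A+ HSCs, against 9.95, 10.60 and 9.85 in CD11A- HSCs, and the second CD11A+ value lay between CD11A- values. Rrm1, the large subunit of ribonucleotide reductase, differed by 0.93 (SE 0.47; 0.23 without CD11A+ replicate 1). Tyms, thymidylate synthase, differed by 1.19 (SE 0.73; -0.11 without CD11A+ replicate 1) with 7.10 on CD11A+ replicate 1 and 4.33 to 4.84 on the other 4 arrays. Tk2, the mitochondrial thymidine kinase, had 7.67 and 7.91 in CD11A+ HSCs and 8.36, 8.33 and 8.29 in CD11A- HSCs, which did not overlap, and a difference of -0.54 (SE 0.18, exact permutation p = 0.1; adjusted p = 1.00 from limma; -0.42 without CD11A+ replicate 1). Rrm2b, the small subunit used in resting and damaged cells, was compared after its values were seen and had 8.74 and 10.10 in CD11A+ HSCs against 9.67, 9.54 and 10.00 in CD11A- HSCs, a difference of -0.32 (SE 0.42) that was 0.36 without CD11A+ replicate 1.

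The genes of chromatin assembly and the fork checkpoint had a median difference of 0.82 over 5 measured members, all with a higher mean in CD11A+ HSCs. Hells, a chromatin remodeler of the SNF2 family needed for DNA methylation, had 9.79 and 8.78 in CD11A+ HSCs, against 7.93, 8.48 and 7.23 in CD11A- HSCs. The values did not overlap and differed by 1.41 (SE 0.46, exact permutation p = 0.2), and by 0.90 without CD11A+ replicate 1. Clspn, which passes the checkpoint signal at stalled forks, had 8.54 and 6.38 in CD11A+ HSCs and 5.48, 7.24 and 5.90 in CD11A- HSCs. The day A arrays were the highest in both subfractions, and the difference was 1.25 (SE 0.77; 0.17 without CD11A+ replicate 1). Chaf1b, a subunit of the histone chaperone CAF-1, had 9.35 and 8.66 in CD11A+ HSCs against 8.42, 9.06 and 8.44 in CD11A- HSCs, and the difference was 0.37 (SE 0.31; 0.02 without CD11A+ replicate 1), the smallest of the role. Slbp, which binds histone mRNA, and Tipin, of the fork protection complex, differed by 0.82 and 0.79 (0.18 and 0.02 without CD11A+ replicate 1).

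**Figure D2:**
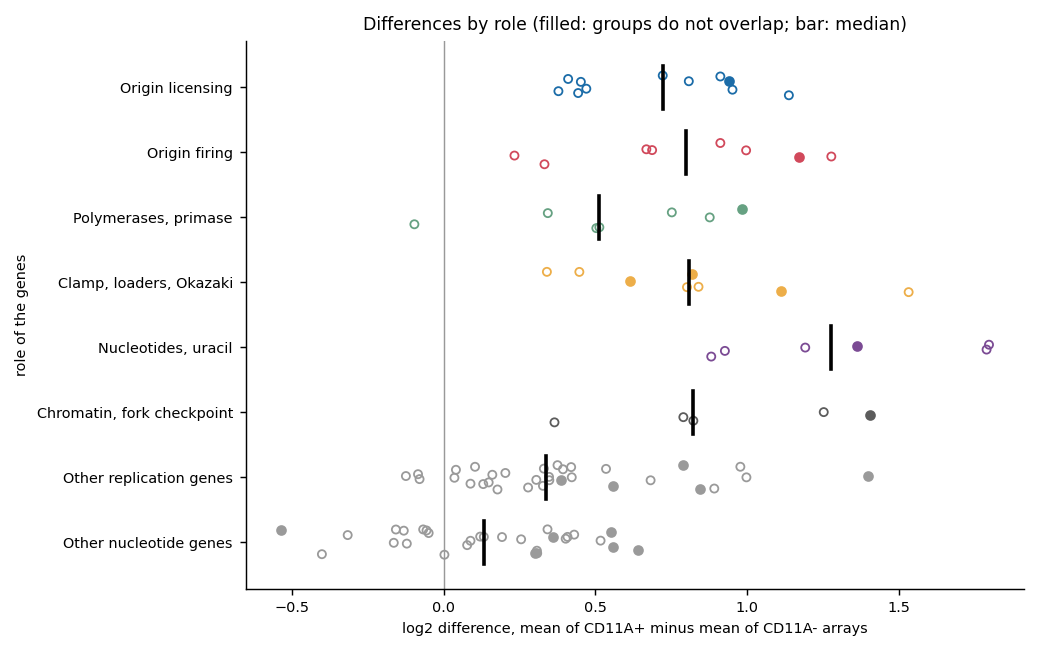
Log2 difference (x axis, mean of CD11A+ minus mean of CD11A- arrays) of each member by role, and of the other replication and nucleotide genes, with filled points where the groups do not overlap and a bar at the median. The medians run from 0.51 for polymerases and primase to 1.28 for nucleotide genes, against 0.34 and 0.13 for the other genes of these pathways.

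Licensing, polymerase and nucleotide genes thus had medians of 0.72, 0.51 and 1.28, and their ranges overlapped (0.38 to 1.14, -0.10 to 0.99 and 0.88 to 1.80). The order was not tested, since genes on the same arrays are not replicates. Without CD11A+ replicate 1 the medians were -0.18, -0.38 and 0.21, in the same order of nucleotide, licensing and polymerase genes, and those of the firing, clamp and chromatin genes were -0.02, 0.32 and 0.17. Across the 45 members, the mean level and the difference had a Spearman correlation of -0.31, as a description of points that share the same arrays.

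Other genes of the pathways were listed from general knowledge, with earlier results of these data known. How their differences compare with those of the members was not tested. Of 32 further replication genes measured, 29 had a higher mean in CD11A+ HSCs, 5 had both CD11A+ arrays above all CD11A- arrays (8.56% of all genes), 0 passed the adjusted threshold of limma, and the median difference was 0.34 (-0.06 without CD11A+ replicate 1). Timeless, the partner of Tipin at the fork, had 10.64 and 9.47 in CD11A+ HSCs, against 8.21, 9.26 and 8.50 in CD11A- HSCs. The groups did not overlap, and the difference was 1.40 (SE 0.45, exact permutation p = 0.2; 0.81 without CD11A+ replicate 1), above the median of the members. The histone chaperone Asf1b differed by 1.00 (-0.12 without CD11A+ replicate 1), and the lowest differences of this list were -0.12 for Mcmbp, an Mcm-binding protein, and -0.09 for Pold4, a small subunit of polymerase delta.

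Of 29 further nucleotide genes, 19 had a higher mean in CD11A+ HSCs, the median difference was 0.13 (-0.17 without CD11A+ replicate 1), and 0 passed the adjusted threshold. In 5 of them both CD11A+ arrays were above all CD11A- arrays (8.56% of all genes), and in 1, Tk2, both were below (10.4% of all genes). Ctps, the enzyme that makes CTP, differed by 0.64 (SE 0.26) and Dck, the deoxycytidine kinase of the salvage pathway, by 0.56 (SE 0.23), and by 0.27 and 0.34 without CD11A+ replicate 1. Samhd1, which breaks down deoxynucleotides, had the second lowest difference, -0.40 (SE 0.26; -0.06 without CD11A+ replicate 1).

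The size of the differences rested largely on 1 array. All 45 members were highest on CD11A+ replicate 1, against 27.2% of all genes. CD11A- replicate 2, sorted on the same day, came second for 34 members, and CD11A- replicate 3 was the lowest for 28. CD11A+ replicate 2 exceeded CD11A- replicate 1 for 29 members, CD11A- replicate 3 for 38 and CD11A- replicate 2 for 9. The mean log2 value over the members was 10.31 and 8.73 on the CD11A+ arrays and 8.59, 9.20 and 8.32 on the CD11A- arrays. For 26 members the range over the 3 CD11A- arrays was larger than the difference between the subfractions. Without CD11A+ replicate 1, 26 of 45 members had a higher mean in CD11A+ HSCs and the median difference was 0.07. Over all 18193 genes these were 8188 and -0.04. Without CD11A+ replicate 2 they were 45 and 1.50 for the members, and 9530 and 0.02 for all genes. Each omission leaves the sort days unbalanced. On the matched arrays of day B, 38 members were higher in CD11A+ HSCs, by a median of 0.41.

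Other measures also differed between the arrays. The mean of the granulocyte markers followed the array order of the members. That of the erythroid markers did so except on its lowest arrays, CD11A- replicates 1 and 3, at 5.01 and 5.02. The mean log2 value of 9 measured granulocyte markers was 8.83 and 5.72 on the CD11A+ arrays and 5.10, 7.67 and 5.02 on the CD11A- arrays. This is the order of the arrays by the mean of the replication members. Single markers of the list did not all have it. Camp did, while S100a8 was lower on CD11A- replicate 1 (6.34) than on CD11A- replicate 3 (7.15). Mmp8 had 4.04 and 4.00 in CD11A+ HSCs, against 4.19, 3.99 and 4.42 in CD11A- HSCs. Of the 9, 8 had a higher mean in CD11A+ HSCs, and 2 did without CD11A+ replicate 1. The 5 markers of granulocyte progenitors did not follow that order, with 7.49 and 5.86 in CD11A+ HSCs, against 6.23, 6.45 and 6.16 in CD11A- HSCs, and 3 of 5 had a higher mean in CD11A+ HSCs. The 5 megakaryocyte markers had 8.0 and 7.82 in CD11A+ HSCs, against 7.44, 7.81 and 8.06 in CD11A- HSCs, with 4 of 5 higher. The exception, Vwf, had the largest difference of this list, -2.64. Its values were 7.11 and 8.80 in CD11A+ HSCs, against 10.69, 10.46 and 10.63 in CD11A- HSCs. The 7 macrophage markers had means of 7.06 and 6.61 in CD11A+ HSCs, against 5.0, 6.29 and 5.39 in CD11A- HSCs. Of the 7, 6 were higher, and 6 were without CD11A+ replicate 1. For 5 of them both CD11A+ arrays lay above all CD11A- arrays (8.56% of all genes). The largest difference of this list was 3.10, for Vcam1. The 6 erythroid markers had 5.52 and 5.06 in CD11A+ HSCs against 5.01, 5.16 and 5.02 in CD11A- HSCs, with 3 of 6 higher. The B cell and T cell markers stayed within 5.54 to 5.92 and 4.67 to 5.03, and Hba-a1, a globin, within 3.42 to 3.99. The difference between the 3-prime and 5-prime control probesets of Gapdh, which reflects amplification and RNA quality, was 1.91 and 2.76 on the CD11A+ arrays and 2.70, 2.22 and 2.80 on the CD11A- arrays, and that of beta-actin was 1.94 and 2.09 in CD11A+ HSCs against 2.51, 2.43 and 1.97 in CD11A- HSCs. The part of these measures in the replication values was not tested.

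**Figure D3:**
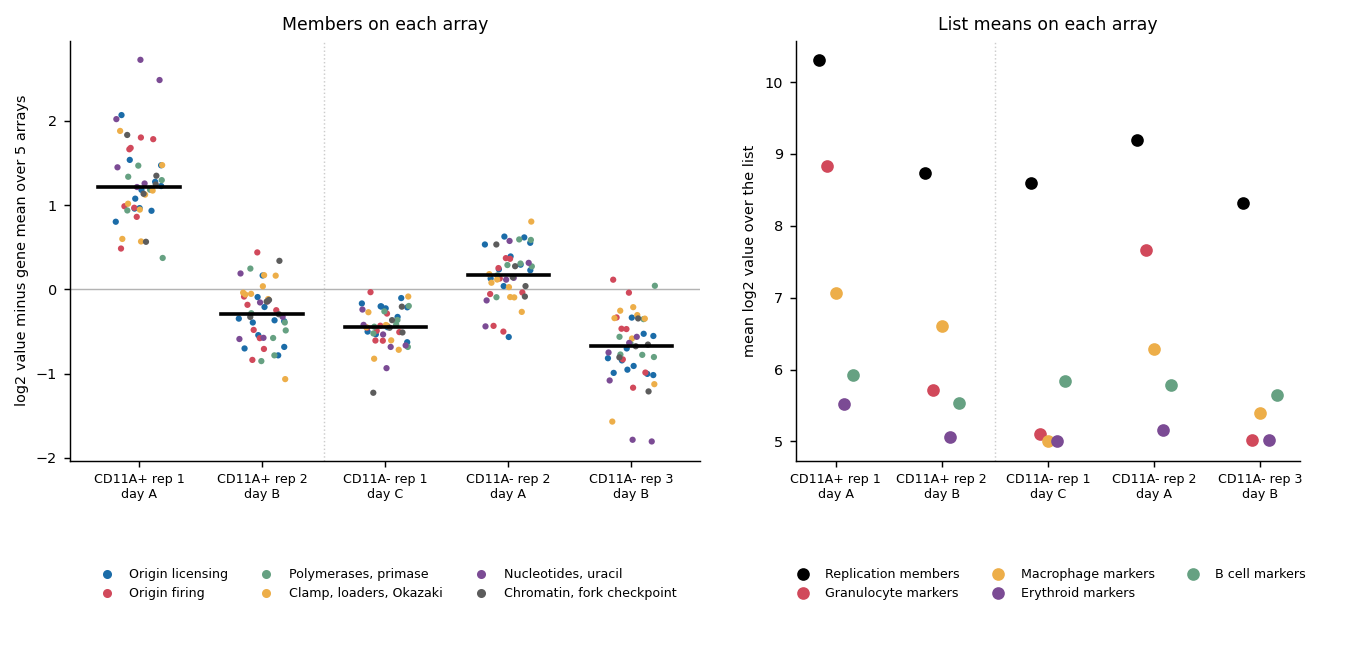
Left, log2 value of each member minus its mean over the 5 arrays (y axis) on each array, colored by role, with a bar at the median of the 45 members. Right, mean log2 value (y axis) of the members and of 4 marker lists on each array. The medians on the left are 1.21 and -0.30 on the CD11A+ arrays and -0.44, 0.17 and -0.68 on the CD11A- arrays.

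Within each sort day, 1 CD11A+ array can be set against 1 CD11A- array, which leaves no replicate check. On day A, 45 of 45 members were higher on the CD11A+ array, by a median of 1.10 (0.02 over all genes), and on day B 38 were higher, by a median of 0.41 (-0.03 over all genes). All 38 were higher on both days, against 25.3% of all genes. The day A difference was the larger for 43 members, and for 9722 of all 18193 genes. The nucleotide genes had medians of 1.87 on day A and 0.85 on day B, the licensing genes 0.92 and 0.45, and the polymerase genes 0.89 and 0.20. Hells differed by 1.31 and 1.55, Dscc1 by 1.70 and 1.53, Ung by 1.58 and 1.27, Rrm2 by 2.17 and 1.48 and Tk1 by 2.15 and 1.21 on days A and B, and these were the 5 members that differed by over 1 on day B. Tyms differed by 2.46 on day A and 0.16 on day B. Its day B values, 4.49 and 4.33, lay below the median of all probesets on those arrays (5.62). Its day B difference can therefore not be set against those of brighter genes. Sort days also differed within a subfraction: the day A array exceeded the day B array by a median of 1.44 over the members in CD11A+ HSCs and 0.82 in CD11A- HSCs, beside 0.05 and 0.03 over all genes. With sort day as a block in limma, which leaves 1 residual degree of freedom, the median difference was 0.77, 0 members passed the adjusted threshold, and the lowest adjusted p was 0.592, for Dscc1.

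**Figure D4:**
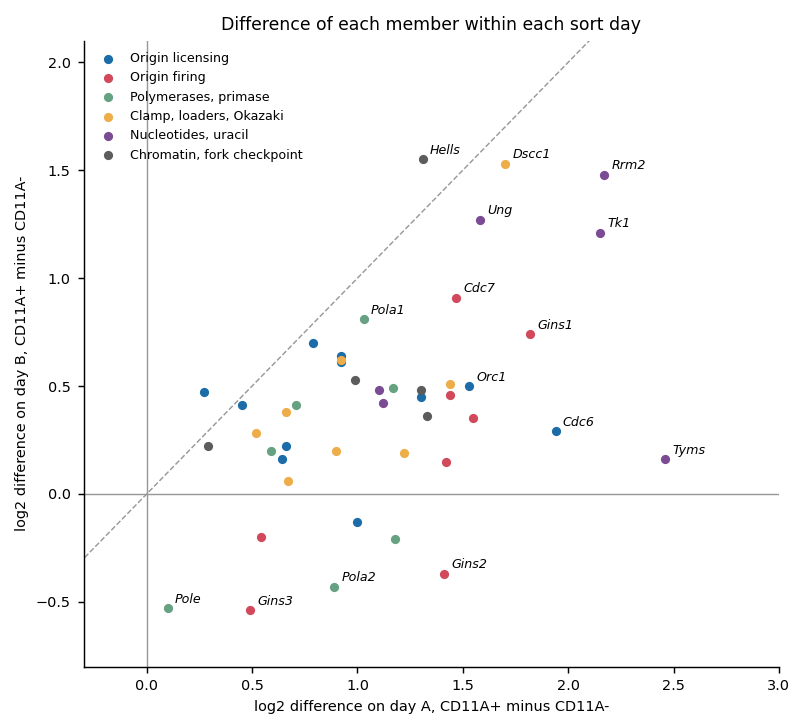
Log2 difference of each member on day A (x axis, CD11A+ replicate 1 minus CD11A- replicate 2) and on day B (y axis, CD11A+ replicate 2 minus CD11A- replicate 3), colored by role, with the line of equal differences dashed. All 45 points lie right of 0 on the day A axis, 38 lie above 0 on the day B axis, and 43 lie below the dashed line.

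Further probesets of the same genes mostly had the same sign. Of the 45 members, 34 had more than 1 probeset, and for 30 of these every further probeset had the sign of the brightest. Mcm10, Dbf4, Pola2 and Tyms each had 1 of opposite sign. Of 52 further probesets in all, 48 had a higher mean in CD11A+ HSCs. The mean level of 43 members lay above that of the median gene, and those of Orc1 and Tyms lay below it, and no detection calls were used.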

How the data were processed

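RNA of CD11A+ and CD11A- HSCs was hybridized to 5 Affymetrix arrays of the mouse genome. The values are log2 intensities per probeset that the authors deposited in 2 tables, which differ in 0 values of the HSC arrays. The submitters' processing notes name RMA, with its version and the set of arrays it was run on not given in the sources used here. Separately, the study's methods describe a normalization on a public platform. In 1 table, 40 columns of other samples were not used, so these HSCs were not ranked among other populations. Of 45101 probesets, 64 controls were left out and 45037 tested. The platform annotation names 1 gene for 34945 of them, several for 932 and none for 9160. Subfractions were compared in R 4.3.3 with limma 3.58.1 (lmFit, then eBayes without a block), adjusting p by Benjamini-Hochberg across every tested probeset at 0.05, and with exact permutation tests in Python 3.11.15. The fit was tested on simulated data. Members and lists were chosen with earlier results of these data known. Named with values on every array were, per role, the members with the 2 largest and the smallest absolute difference, all with groups that did not overlap and all with a negative difference. In the other lists the 2 largest differences in each direction were named. Genes added after their values were seen are said to be so.

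The labels give the sort days, which cut across the replicate numbers. Deviations from group means correlated at 0.56 and 0.59 for arrays of days A and B, and at 0.12 and -0.56 for replicate numbers 1 and 2, where the CD11A+ deviations mirror each other by construction. Alternatives covered the values (the second table, quantile normalization, centring on medians, dropping dim probesets, averaging probesets), the model (a trend with intensity, weights per array, sort day as a random or fixed block, the replicate block, each array omitted) and the test (no adjustment, an unpaired test per probeset).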

Additional observations from a re-analysis of the deposited data

Results flagged for a closer look

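Of the members, 7 were higher on the CD11A+ array of day A and lower on that of day B. Of all 18193 genes, 9298 were higher on day A and 4604 on both days, against 45 and 38 of the 45 members. A rise on day A alone was therefore not particular to the members. The log2 differences on days A and B were 1.00 and -0.13 for Orc6, 1.41 and -0.37 for Gins2, 0.49 and -0.54 for Gins3, and 0.54 and -0.20 for Gins4. They were 0.89 and -0.43 for Pola2, 1.18 and -0.21 for Prim2, and 0.10 and -0.53 for Pole. So 3 of the 4 GINS subunits and 3 of the 7 polymerase and primase genes changed sign between days. With 1 array per subfraction and day, the difference between days was not tested.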

How the results depend on the processing

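The count of members past the adjusted threshold was 0 of 45 in every alternative run that kept the adjustment, the unpaired test per probeset included, and 7 at an unadjusted limma p under 0.05. With arrays left out 1 at a time, the count of members whose groups did not overlap, 8 with all arrays, ranged from 8 to 45. It was 45 without CD11A+ replicate 2 and 27 without CD11A- replicate 2, where fewer arrays are easier to separate. Without CD11A+ replicate 2, a gene need only have CD11A+ replicate 1 above the CD11A- arrays. At least 27.2% of all genes met this, being highest on that array. Shares over all genes under the omissions are not given, so these counts are no result about the members. The medians ranged under the same omissions from 0.067 to 1.50 for all members, -0.18 to 1.41 for licensing, -0.018 to 1.69 for firing, -0.38 to 1.38 for polymerase, 0.32 to 1.40 for clamp, 0.21 to 2.25 for nucleotide and 0.17 to 1.56 for chromatin genes, and from -0.063 to 0.79 and -0.17 to 0.55 for the other replication and nucleotide genes. The lowest value of each came without CD11A+ replicate 1 and the highest without CD11A+ replicate 2. In the other alternatives these medians moved by less than the spread between arrays. With the replicate block, the median over the members was 0.64, and the numbers do not pair the arrays, since they cross the sort days.

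Of 674 member values under alternatives, 648 kept direction and side of the threshold and 26 changed sign, 18 of these without CD11A+ replicate 1. The value without CD11A+ replicate 1, the lowest over the omissions, and that without CD11A+ replicate 2, the highest, were -0.50 and 1.41 for Orc6, -0.25 and 2.52 for Cdc6, -0.013 and 1.84 for Cdt1, -0.013 and 1.92 for Gmnn, -0.37 and 1.25 for Mcm2, -0.62 and 1.44 for Mcm3, -0.20 and 0.95 for Mcm6, -0.18 and 1.12 for Mcm7, -0.34 and 2.17 for Mcm10, -0.083 and 2.08 for Cdc45, -0.56 and 1.94 for Gins2, -0.49 and 0.95 for Gins3, -0.65 and 1.33 for Pola2, -0.65 and 1.67 for Prim2, -0.53 and 0.33 for Pole, -0.093 and 1.60 for Pole2, -0.38 and 1.38 for Pold1, -0.93 and 1.61 for Rfc4 and -0.11 and 2.50 for Tyms. Among the other genes they were -0.63 and 0.38 for Mcmbp, -0.22 and 0.05 for Pold4, -0.12 and 2.11 for Asf1b, -0.017 and 0.42 for Orc2 and -0.13 and 0.21 for Orc4. The order of the omissions was turned for Orc3 (0.17 and -0.10), Orc5 (0.28 and -0.077) and Rrm2b (0.36 and -0.997). Signs also changed for Mcm3 (-0.01), Rfc4 (-0.16) and Orc4 (-0.11) with the replicate block, for Gins3 with sort day as a fixed block (-0.025), for Mcmbp (0.017) and Orc4 (-0.23) with the mean of a gene's probesets, and for Orc4 with array weights (-0.019). Smaller changes of sign without a CD11A- array concerned Mcm3, Rfc4, Gins3, Pole, Mcmbp and Orc4. The causes were not tested.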
